A study of Mus musculus with 4 samples.

Results

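The genes described here are the transactivator gene Ciita and 9 genes of the MHC class II pathway, Cd74, H2-Aa, H2-Ab1, H2-Eb1, H2-DMa, H2-DMb1, H2-DMb2, H2-Oa and H2-Ob. They were chosen by name, and all 10 were found among the 54532 genes listed for each library. Their RNA was measured by sequencing brain tissue of C57BL/6 mice in 4 groups. Old tumor-bearing and young tumor-bearing mice had received 50000 GL261 cells in the brain, a mouse glioma line of the same strain, and tissue that the submitters call extra-tumoral was taken on day 21. Old naive and young naive mice were the controls without a tumor. No drug or genetic change was given in any group. The young mice were 8 to 12 weeks old. For the old mice the stated range is 8 to 90 weeks. Its lower end is that of the young mice, and the old groups are used only as labelled. The naive libraries carry the GL261 tag too, and the group tag was followed. A single library stands for each group, and how many mice went into it is not given in the sources used here. No difference below therefore has a replicate check, no test between groups was made, and each statement compares libraries.

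MHC class II molecules present peptides from the endocytic pathway to CD4 T cells. Dendritic cells, B cells and macrophages carry them, and microglia of healthy brain have little. Interferon gamma can induce them in many other cells through Ciita, which switches on genes of the class II pathway. The α and β chains, H2-Aa with H2-Ab1 for the I-A molecule, assemble on the invariant chain Cd74. The DM molecule, made of H2-DMa and an H2-DMb chain, then removes the last fragment of Cd74 from the groove, and DO, made of H2-Oa and H2-Ob, holds DM back. Mice of the H2-b haplotype, such as C57BL/6, transcribe the I-E β chain gene H2-Eb1 but not a working I-E α chain gene.

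Class II promoters share an X box, bound by the RFX complex, and a Y box, bound by NF-Y, and Ciita docks on these proteins and not on DNA. RefSeq promoters on GRCm38.p6, 8 in all, were at hand for 7 of the 10 members. Letters of the Y box (ATTGG) were sought on either strand in the 250 bases before the gene start. All 7 members had them in a promoter, but a further promoter of H2-DMa lacked them. The share was 33.8% of all 32851 promoters, counted by promoter and not by gene. A core of the X box (AACNNATG) followed on the gene's own strand within 30 bases by the Y box was found in 4 members, H2-DMb1, H2-DMb2, H2-Eb1 and H2-Ob, against 0.134% of all promoters. The 2 motifs do not overlap, and both were chosen after these promoters had been read. The windows shown start 50 bases before the Y box, so that the spacing of the boxes can be compared between members. Capitals mark the X box core and the Y box.
H2-Eb1: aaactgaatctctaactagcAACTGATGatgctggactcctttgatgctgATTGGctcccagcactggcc
H2-DMb1: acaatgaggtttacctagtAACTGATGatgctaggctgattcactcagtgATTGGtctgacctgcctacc
H2-DMb2: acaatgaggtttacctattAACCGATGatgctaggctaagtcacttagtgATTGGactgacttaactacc
H2-Ob: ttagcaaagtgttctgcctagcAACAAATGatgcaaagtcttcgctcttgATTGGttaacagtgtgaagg
H2-Aa: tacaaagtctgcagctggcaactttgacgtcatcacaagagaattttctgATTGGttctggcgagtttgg
H2-Oa: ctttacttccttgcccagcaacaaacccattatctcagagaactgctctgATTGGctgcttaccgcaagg

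The windows lie at chr17:34305758-34305827 (H2-Eb1), chr17:34153080-34153149 (H2-DMb1), chr17:34145109-34145178 (H2-DMb2), chr17:34238798-34238867 (H2-Ob) and chr17:34092286-34092355 (H2-Oa) on the plus strand, and at chr17:34287852-34287921 on the minus strand (H2-Aa). Between the boxes lie 22 bases in H2-Eb1, 23 in H2-DMb1 and H2-DMb2 and 20 in H2-Ob. The Y box starts 48 bases before the RefSeq gene start in H2-Aa, 43 in H2-Oa, 57 in H2-Ob, 59 in H2-Eb1, 61 in H2-DMb1 and 90 in H2-DMb2. The core letters of the X box are not in the windows of H2-Aa and H2-Oa, nor in the promoters of H2-DMa. The Y box of H2-DMa, in a window not shown and in the promoter that has it, starts 198 bases before that promoter's gene start. Promoters that share both boxes did not share a level or a fold, since H2-Eb1 was among the highest members and H2-Ob among the lowest. Outside the members, 11 genes with both boxes reached 1 FPKM in an old library, of which 3 were at least 2-fold higher in old tumor-bearing than in old naive tissue and 4 at least 2-fold lower, shares near those of all genes (20.6% and 31.4%).

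The old tumor-bearing library stood apart from the other 3, and the young comparisons give the picture without it. Levels are given as deposited, in FPKM, the fragments per kilobase of gene scaled by a depth divisor for each library. Comparisons between genes rest on the gene lengths that the authors used. The libraries held between 19572251 and 23267926 fragments in genes. The divisor did not follow these fragments. It was 1.19 times their number in old tumor-bearing, 0.914 times in young tumor-bearing, 0.797 times in old naive and 0.879 times in young naive tissue. The 5 proliferation markers summed to 117 FPKM in old tumor-bearing and 5.36 FPKM in young tumor-bearing tissue, against 0.458 FPKM in old naive and 0.732 FPKM in young naive tissue. The imprinted RNA H19 was at 2497 FPKM in the old tumor-bearing library, against 6.54, 0.052 and 0.159 FPKM in the same order. The 7 neuronal markers summed to 276 FPKM in old tumor-bearing and 902 FPKM in young tumor-bearing tissue, against 1351 FPKM in old naive and 1017 FPKM in young naive tissue, so neuronal RNA was present in all 4 and lowest in old tumor-bearing tissue. In the same order the 5 astrocyte markers summed to 255, 449, 351 and 357 FPKM, the 5 oligodendrocyte markers to 526, 837, 642 and 886 FPKM and the 5 endothelial markers to 36.7, 44.8, 59.7 and 53.3 FPKM. These sums mix directions. Between old tumor-bearing and old naive tissue, 1 astrocyte marker, Gfap, was at least 2-fold higher (167 against 42.2 FPKM) and 2 were lower. Of the oligodendrocyte markers 1, Sox10, was higher (156 against 24.5 FPKM) and 0 lower, and of the endothelial markers 0 were higher and 1 lower. In tissue RNA of this kind, more cells of a type and more RNA per cell cannot be told apart.

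All 10 members were higher in the tumor-bearing than in the naive library at both ages. The FPKM of the 10 summed to 1291 in old tumor-bearing tissue against 24.3 in old naive tissue (53.0-fold), and to 206 in young tumor-bearing tissue against 19.8 in young naive tissue (10.4-fold). Cd74 and the chain genes H2-Aa, H2-Ab1 and H2-Eb1 made up 94.2% of the sum in old tumor-bearing, 91.0% in young tumor-bearing, 54.0% in old naive and 61.4% in young naive tissue. In naive brain H2-DMa alone held much of the rest.

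**Figure D1:**
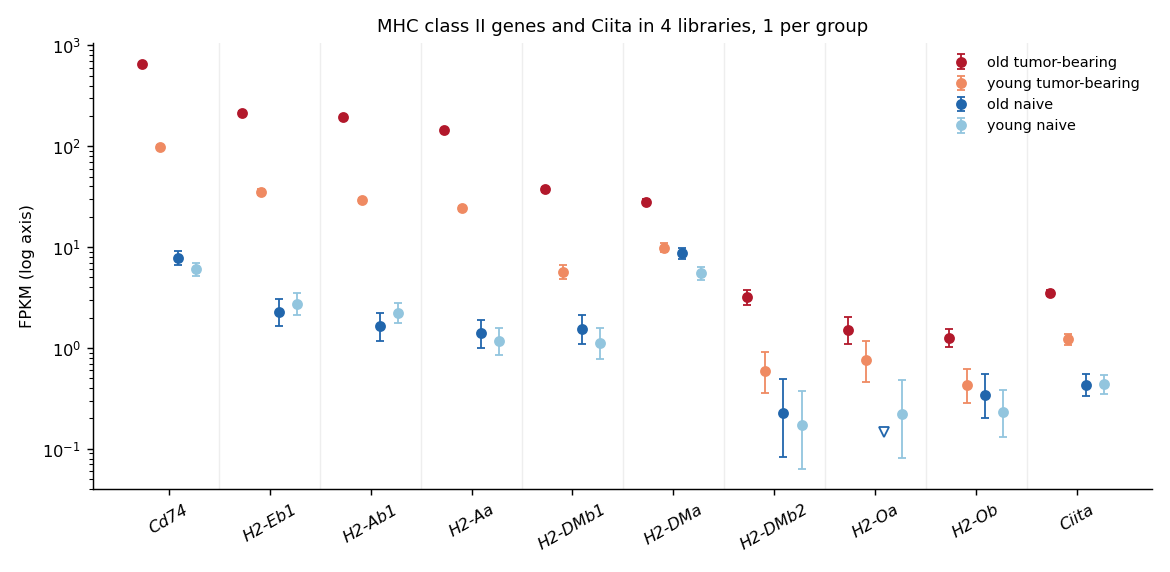
FPKM (log axis) of each member in the 4 libraries, 1 point per library, with exact 95% Poisson intervals of the reads, which cover counting error only; the open triangle is the level of 3 reads for H2-Oa, which had 0 reads in old naive tissue. Every member was highest in the old tumor-bearing library and second in the young tumor-bearing one, from Cd74 at 660 FPKM down to H2-Ob at 1.27 FPKM.

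Cd74, the invariant chain (ENSMUSG00000024610, mm10 chromosome 18, 60803848 to 60812652, plus strand), was at 660 FPKM in old tumor-bearing and 98.5 FPKM in young tumor-bearing tissue, against 7.84 FPKM in old naive and 6.04 FPKM in young naive tissue. The naive libraries were close to each other and both tumor-bearing libraries far above them. Cd74 was 84.2-fold higher in old tumor-bearing than in old naive tissue (72.5 to 98.4) and 16.3-fold higher in young tumor-bearing than in young naive tissue (14.0 to 19.1). The range in parentheses behind each fold is its exact 95% interval from the reads and holds counting error alone. Among protein-coding genes Cd74 ranked 17 by FPKM in the old tumor-bearing and 305 in the young tumor-bearing library, against 6375 in the old naive and 7372 in the young naive library.

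H2-Ab1, the I-A β chain (ENSMUSG00000073421, chromosome 17, 34257689 to 34269419, plus strand), was at 196 FPKM in old tumor-bearing and 29.1 FPKM in young tumor-bearing tissue, against 1.64 FPKM in old naive and 2.24 FPKM in young naive tissue. Its fold of 119 in old tissue (88.2 to 166) was the largest of the members with reads in both libraries, and its fold in young tissue was 12.98 (10.3 to 16.6). H2-Aa, the I-A α chain (ENSMUSG00000036594, chromosome 17, 34282744 to 34287823, minus strand), was at 144 and 24.2 FPKM in old and young tumor-bearing tissue, against 1.398 and 1.17 FPKM in old and young naive tissue. It was 103-fold higher in old tumor-bearing tissue (75.7 to 143) and 20.6-fold higher in young tumor-bearing tissue (15.3 to 28.5), each against naive tissue of the same age. The intervals of H2-Aa, H2-Ab1, H2-Eb1 and Cd74 overlapped within an age, and their order by fold was not tested.

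H2-Eb1, the I-E β chain (ENSMUSG00000060586, chromosome 17, 34305867 to 34316674, plus strand), was as high as the I-A chains, at 216 FPKM in old tumor-bearing and 35.3 FPKM in young tumor-bearing tissue, against 2.27 FPKM in old naive and 2.73 FPKM in young naive tissue. The fold was 95.2 in old (70.3 to 132) and 12.9 in young tissue (10.1 to 16.9). H2-Ea-ps, the I-E α chain gene of this haplotype, had 0 reads in all 4 libraries, where 3 reads would be 0.125 FPKM in the old tumor-bearing library. It is not a member and was looked up after the values of H2-Eb1 were seen. H2-Eb2, a neighbouring β chain gene outside the members, was at 0.662 FPKM in old tumor-bearing and 0.362 FPKM in young tumor-bearing tissue, against 0 reads in old naive and 0.133 FPKM in young naive tissue.

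The DM genes did not move together. H2-DMb1, the DM β chain (ENSMUSG00000079547, chromosome 17, 34153072 to 34160230, plus strand), was at 37.5 FPKM in old tumor-bearing and 5.69 FPKM in young tumor-bearing tissue, against 1.55 FPKM in old naive and 1.12 FPKM in young naive tissue, which is 24.2-fold (17.4 to 34.7) and 5.08-fold (3.499 to 7.58) higher in old and in young tissue. H2-DMa, the α chain (ENSMUSG00000037649, chromosome 17, 34119541 to 34139101, plus strand), was at 28.3 FPKM in old tumor-bearing and 9.90 FPKM in young tumor-bearing tissue, against 8.65 FPKM in old naive and 5.48 FPKM in young naive tissue. Its folds of 3.27 in old (2.83 to 3.80) and 1.81 in young tissue (1.502 to 2.18) were the lowest of the members, close to those of H2-Ob, and its interval did not overlap that of H2-DMb1 at either age. In the naive libraries H2-DMa was the highest member in old and the second after Cd74 in young tissue. The annotated H2-DMa gene overlaps Brd2 on the other strand, a chromatin gene at 34.7, 34.6, 35.7 and 29.5 FPKM in old tumor-bearing, young tumor-bearing, old naive and young naive tissue, and it is not known whether strand was used in counting. How far Brd2 reads enter the level of H2-DMa was not tested.

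H2-DMb2, a copy of the DM β chain gene next to H2-DMb1 (ENSMUSG00000037548, chromosome 17, 34143307 to 34151555, plus strand), was low, with 126 reads (3.17 FPKM) in old tumor-bearing and 20 reads (0.585 FPKM) in young tumor-bearing tissue, against 6 reads (0.224 FPKM) in old naive and 6 reads (0.172 FPKM) in young naive tissue. The fold was 14.1 in old (6.31 to 39.2) and 3.41 in young tissue (1.32 to 10.4). The ratio of H2-DMb2 to H2-DMb1 was 0.084 in old tumor-bearing (0.070 to 0.101), 0.103 in young tumor-bearing (0.061 to 0.164), 0.145 in old naive (0.050 to 0.347) and 0.153 in young naive tissue (0.053 to 0.369), with intervals that overlap. Reads of close copies can be split between them, so the single values of this pair are uncertain.

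The DO genes, best known from B cells and some dendritic cells, were the lowest members in old tumor-bearing tissue. In the other libraries they were among the lowest, beside H2-DMb2. H2-Oa (ENSMUSG00000024334, chromosome 17, 34092340 to 34095234, plus strand) had 46 reads (1.51 FPKM) in old tumor-bearing and 20 reads (0.761 FPKM) in young tumor-bearing tissue, against 0 reads in old naive and 6 reads (0.223 FPKM) in young naive tissue. It was at least 10.3-fold higher in old tumor-bearing tissue when 3 reads are taken as the limit for the old naive library, and the exact interval of the fold, which also holds the counting error of the 46 reads, starts at 8.06. It was 3.41-fold higher in young tumor-bearing tissue (1.32 to 10.4). H2-Ob (ENSMUSG00000041538, chromosome 17, 34238903 to 34254414, plus strand) was at 1.27 FPKM in old tumor-bearing and 0.428 FPKM in young tumor-bearing tissue, against 0.345 FPKM in old naive and 0.233 FPKM in young naive tissue. Its fold was 3.68 in old tissue (2.18 to 6.59). In young tissue its fold of 1.84 had an interval from 0.945 to 3.72, so a difference was not detectable at this depth. H2-Oa overlaps the antisense gene BC051537, which had 0 FPKM in all 4 libraries.

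Ciita (ENSMUSG00000022504, chromosome 16, 10480059 to 10528418, plus strand) was at 3.54 FPKM in old tumor-bearing and 1.22 FPKM in young tumor-bearing tissue, against 0.429 FPKM in old naive and 0.436 FPKM in young naive tissue. Reads were 784, 233, 64 and 85 in that order. Both naive libraries lay together and both tumor-bearing ones above them, 8.24-fold in old (6.38 to 10.8) and 2.80-fold in young tissue (2.18 to 3.64). These folds lay below those of Cd74, H2-Aa, H2-Ab1 and H2-Eb1 at both ages, with no overlap of the intervals. Ciita overlaps Dexi on the other strand, which was at 5.59, 13.6, 14.6 and 14.5 FPKM in the same order, above Ciita in each library. The pattern of Dexi differed from that of Ciita, but how far Dexi reads enter the level of Ciita was not tested.

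**Figure D2:**
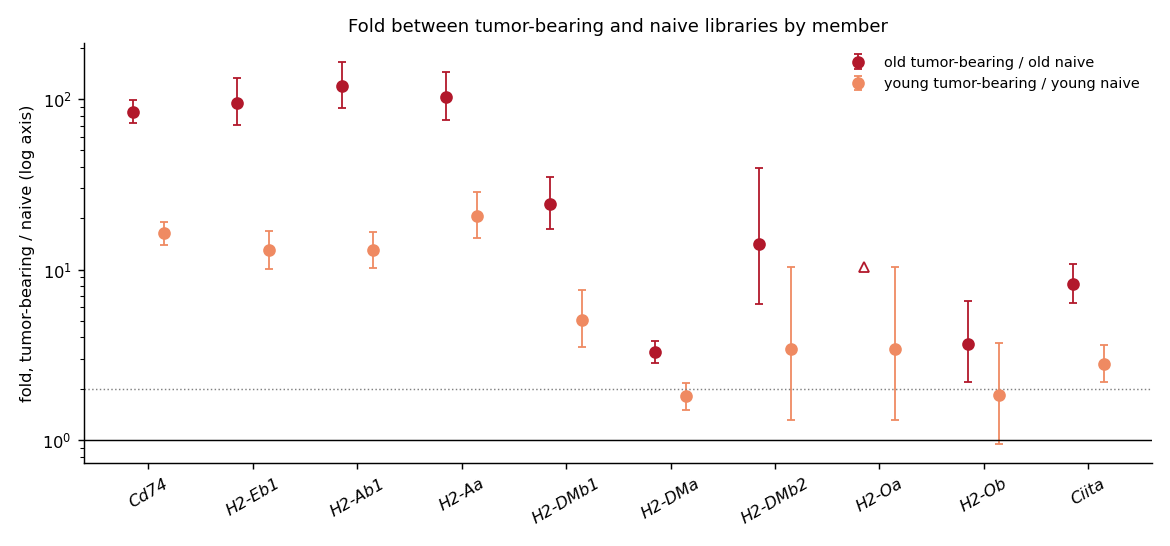
Fold of FPKM between the tumor-bearing and the naive library (log axis) for each member, in old and in young tissue, with exact 95% intervals from the reads (counting error only). The dotted line marks 2-fold, and the open triangle sets the 46 reads of H2-Oa in old tissue against the limit of 3 reads (10.3-fold, where the exact interval starts at 8.06); the genes of I-A, I-E and Cd74 lie highest and H2-DMa and H2-Ob lowest at both ages.

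Read against all genes, 10 of 10 members were at least 2-fold higher in old tumor-bearing than in old naive tissue, where 20.6% of 16488 genes were higher by that measure and 31.4% were lower. The count uses the log2 ratio of FPKM + 0.1 over genes that reached 1 FPKM in either library, and 4 of the 10 passed that filter only through the tumor-bearing library. The members' median log2 ratio was 4.26 and that of all genes -0.31. In young tissue 7 members passed the filter, 1 of them only through the tumor-bearing library, and 6 of these 7 were at least 2-fold higher, against 5.05% of 15500 genes higher and 1.85% lower. Without the filter it was 8 of 10, with a median log2 ratio of 1.83, whereas H2-DMa and H2-Ob stayed under 2-fold. The median of all filtered genes in young tissue was -0.01. A counting interval wholly above 1 was met by 10 members in old tissue, where 33.4% of genes met it and 50.3% had one wholly below 1, and by all 7 members that passed the filter in young tissue, where the shares among filtered genes were 24.9% above and 27.5% below. Counted over all 10 members, filter or not, it was 9 in young tissue.

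The fold between tumor-bearing and naive tissue was larger in old than in young tissue for all 10 members, a difference that rests on the old tumor-bearing library and has no replicate. The old log2 ratio exceeded the young one by a median of 2.30, against -0.32 over 17441 genes. Among the 9 members with reads in all 4 libraries the excess was largest for H2-Ab1, whose old fold was 9.20 times its young fold (6.26 to 13.5), followed by H2-Eb1 at 7.35 times (4.96 to 10.9), Cd74 at 5.16 times (4.16 to 6.39), H2-Aa at 4.99 times (3.25 to 7.67) and H2-DMb1 at 4.77 times (2.90 to 7.82). Ciita stood at 2.94 times (2.06 to 4.198) and H2-DMa at 1.81 times (1.44 to 2.28). These intervals are normal approximations from the 4 read counts. Of these 9 members 8 had such an interval above 1, and H2-Ob, at 2.0 times (0.885 to 4.52), did not. H2-Oa, with 0 reads in old naive tissue, has no such ratio, and its log2 excess of 2.59 on the FPKM + 0.1 scale depends on the added 0.1.

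Set directly against each other, old tumor-bearing tissue was above young tumor-bearing tissue for every member. At least 2-fold higher were 9 of 10, against 19.0% of 16562 genes higher and 29.8% lower, with 3 members passing the filter only through the old library. The members' median log2 ratio was 2.41 and that of all genes -0.28. The folds of Cd74 (6.70), H2-Ab1 (6.73), H2-DMb1 (6.60), H2-Eb1 (6.11) and H2-Aa (5.94) lay close together. Ciita (2.89), H2-Ob (2.96), H2-DMa (2.86) and H2-Oa (1.98) were lower, and H2-DMb2 lay between them at 5.42 (3.36 to 9.17). The counting interval lay above 1 for all 10, where 33.6% of genes had one above 1 and 50.4% one below.

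Without a tumor, old and young brain differed little in these genes. None of the 6 members that passed the filter was 2-fold apart, where 6.71% of 15419 genes were higher by 2-fold or more and 4.93% were lower. Their median log2 ratio was 0.30, and that of all genes 0.06. Counting intervals lay above 1 for 2 members, H2-DMa at 1.58-fold (1.29 to 1.93) and Cd74 at 1.30-fold (1.05 to 1.61), and below 1 for 0, where 35.0% of genes met the first measure and 26.9% the second. The log2 ratio of Cd74 was 0.37 on the deposited scale and 0.15 with equal FPKM totals, and that of H2-DMa 0.65 and 0.42. H2-Ab1 was 0.732 times as high in old as in young naive tissue (0.489 to 1.08) and H2-Aa 1.19 times (0.760 to 1.86), neither apart beyond counting error. H2-Oa had 0 reads in old naive and 6 in young naive tissue, a ratio of at most 1.11 by its exact interval, so an absence in old tissue cannot be read from it.

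Ratios within a library do not depend on how libraries were scaled. For the I-A chains, H2-Aa to H2-Ab1 was 0.735 in old tumor-bearing (0.711 to 0.760) and 0.832 in young tumor-bearing tissue (0.759 to 0.912). With wider intervals it was 0.853 in old naive (0.541 to 1.34) and 0.524 in young naive tissue (0.354 to 0.768). Cd74 stood at 3.38 times H2-Ab1 in old tumor-bearing (3.29 to 3.47) and 3.39 times in young tumor-bearing tissue (3.15 to 3.65), against 4.78 times in old naive (3.40 to 6.87) and 2.69 times in young naive tissue (2.04 to 3.58). The tumor-bearing libraries thus held Cd74 and H2-Ab1 in the same proportion within counting error, at levels that differed more than 6-fold.

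The ratio of the DM chains differed more between libraries. H2-DMb1 to H2-DMa was 1.33 in old tumor-bearing (1.22 to 1.44) and 0.575 in young tumor-bearing tissue (0.474 to 0.694), against 0.179 in old naive (0.122 to 0.256) and 0.204 in young naive tissue (0.137 to 0.296). The 3 levels of old tumor-bearing, young tumor-bearing and naive tissue did not overlap. H2-DMa to H2-Ab1 turned from an excess of the DM chain in naive tissue to an excess of the class II chain in tumor-bearing tissue, at 0.145 in old tumor-bearing and 0.341 in young tumor-bearing tissue against 5.27 in old naive and 2.45 in young naive tissue. H2-Ob to H2-DMb1 was 0.034 in old tumor-bearing (0.027 to 0.042) and 0.075 in young tumor-bearing tissue (0.048 to 0.113), against 0.222 in old naive (0.117 to 0.406) and 0.208 in young naive tissue (0.105 to 0.392). Per unit of Ciita, Cd74 was at 187 in old tumor-bearing (174 to 200.8) and 80.7 in young tumor-bearing tissue (70.5 to 92.6), against 18.3 in old naive (13.6 to 24.7) and 13.8 in young naive tissue (10.6 to 18.2). The naive pair overlapped, and both tumor-bearing libraries lay above it and apart from each other.

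**Figure D3:**
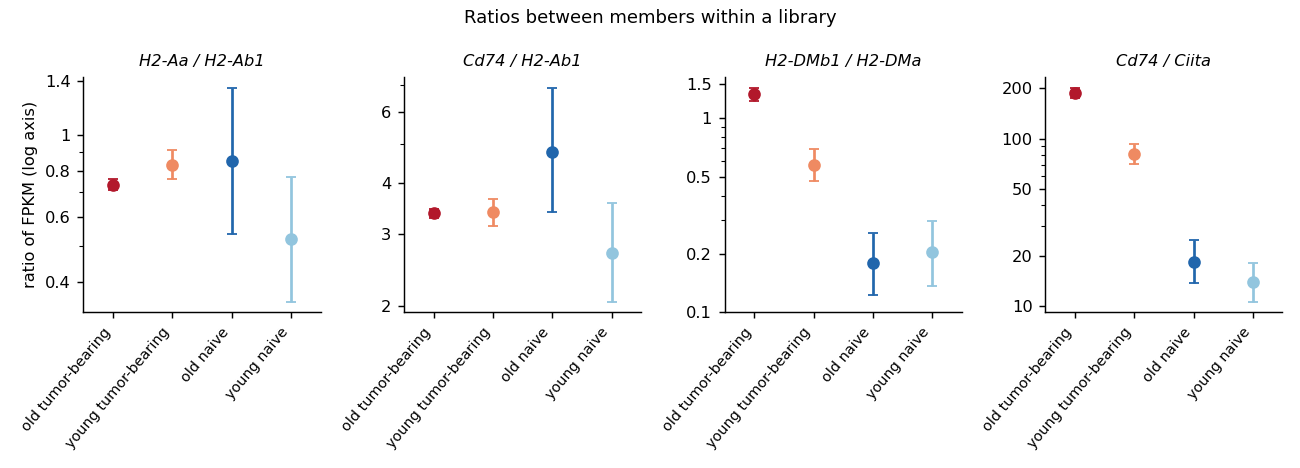
Ratio of FPKM between pairs of members within each library (log axes), with exact 95% intervals from the reads (counting error only), 1 point per library. H2-Aa to H2-Ab1 lies between 0.524 and 0.853 and Cd74 to H2-Ab1 between 2.69 and 4.78, with wide intervals in naive tissue. H2-DMb1 to H2-DMa and Cd74 to Ciita are lowest in the naive libraries and highest in the old tumor-bearing one, at 1.33 and 187.

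Several leukocyte genes were higher in tumor-bearing tissue, and their values follow, since cells that carry MHC class II can enter tissue. Ptprc, which encodes the pan-leukocyte protein CD45, was at 2.75 FPKM in old tumor-bearing and 0.587 FPKM in young tumor-bearing tissue, against 0.216 FPKM in old naive and 0.264 FPKM in young naive tissue, 12.7-fold higher in old (9.85 to 16.7) and 2.22-fold higher in young tissue (1.74 to 2.85). Divided by Ptprc, Cd74 was at 240 in old tumor-bearing and 168 in young tumor-bearing tissue, against 36.2 in old naive and 22.8 in young naive tissue. The ratio to Ptprc was thus 6.62-fold higher for Cd74 in old tumor-bearing tissue, 8.09-fold for H2-Aa, 9.38-fold for H2-Ab1 and 7.49-fold for H2-Eb1. In young tumor-bearing tissue these were 7.35, 9.28, 5.84 and 5.83. Ciita over Ptprc was 1.28 in old tumor-bearing and 2.08 in young tumor-bearing tissue, against 1.98 in old naive and 1.65 in young naive tissue, a fold of 0.648 in old and 1.26 in young tissue. H2-DMa over Ptprc was lower in tumor-bearing tissue, at 0.257 times the naive ratio in old and 0.813 times in young tissue. The pan-leukocyte list of 6 genes, Ptprc included, summed to 161 FPKM in old tumor-bearing and 65.8 FPKM in young tumor-bearing tissue, against 79.4 FPKM in old naive and 53.4 FPKM in young naive tissue. Of that list 5 of 6 filtered genes were at least 2-fold higher in old tissue and 1 of 5, Cd52, in young tissue. Ptprc in old and Cd52 in young tissue passed only through the tumor-bearing library. Coro1a was lower in old tumor-bearing tissue, at 24.5 FPKM against 45.1 FPKM in old naive tissue. Ptprc moved more than the sum, and the result of the division depends on which genes are divided by. Over the pan-leukocyte sum Cd74 was 41.5-fold higher in old and 13.2-fold higher in young tumor-bearing tissue, and Ciita 4.06-fold and 2.27-fold. Over the homeostatic microglia sum, Cd74 was 81.9-fold and 13.9-fold higher, and Ciita 8.02-fold and 2.39-fold. Between old and young tumor-bearing tissue Cd74 differed by 1.43-fold per Ptprc, by 2.74-fold per pan-leukocyte sum and by 6.17-fold per microglia sum, beside 6.70-fold in FPKM.

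**Figure D4:**
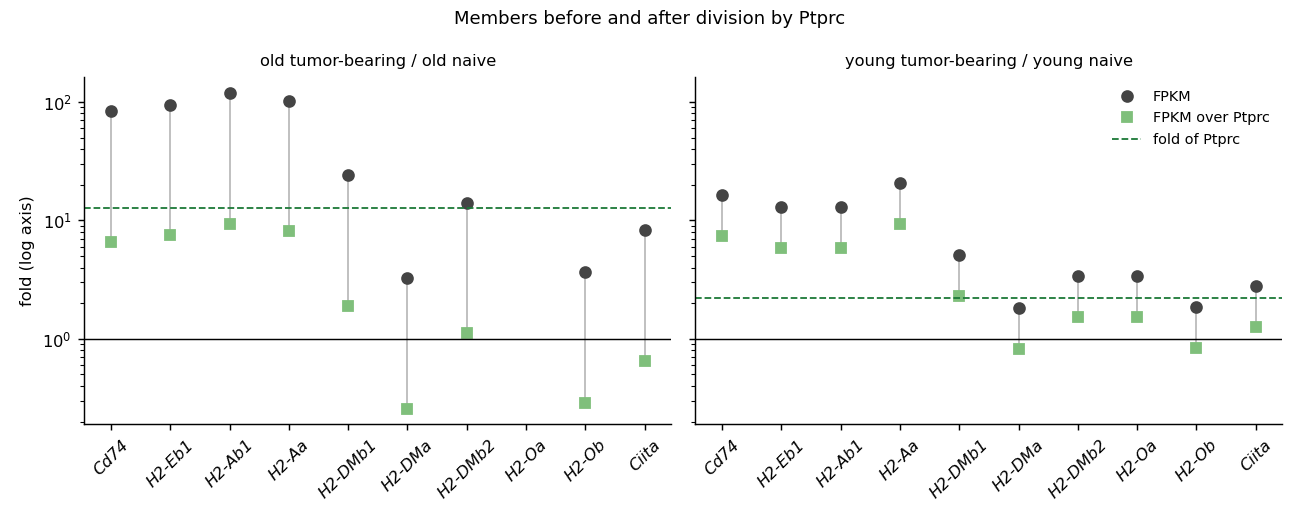
Fold of each member between tumor-bearing and naive tissue (log axis), in FPKM (circles) and after division by Ptprc in the same library (squares), for old tissue on the left and young on the right; the dashed line is the fold of Ptprc itself, 12.7 in old and 2.22 in young tissue, and H2-Oa has no point in old tissue because it had 0 reads in the naive library. After division Cd74 and the genes of I-A and I-E stay over 5-fold higher at both ages, and Ciita is at 0.648 in old and 1.26 in young tissue; over the pan-leukocyte sum, not drawn, Ciita is at 4.06 and 2.27.

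Markers of the cells that could carry class II gave uneven values. The 7 homeostatic microglia markers summed to 105 FPKM in old tumor-bearing and 96.5 FPKM in young tumor-bearing tissue, against 102 FPKM in old naive and 82.2 FPKM in young naive tissue, with 0 of 7 at least 2-fold higher at either age and 1 lower in old tissue. Of 9 dendritic cell markers, 5 passed the filter in old tissue, with 3 at least 2-fold higher and 1 lower, and 2 passed in young tissue with 0 apart. The 3 higher genes passed only through the tumor-bearing library. Itgax, which encodes the integrin CD11c of dendritic cells and of activated microglia, had 937 reads in old tumor-bearing and 67 in young tumor-bearing tissue, against 12 in old naive and 0 in young naive tissue. Xcr1 and Clec9a, which mark one class of dendritic cells, had 32 and 29 reads in old tumor-bearing and 4 and 9 in young tumor-bearing tissue, against 0 each in old naive tissue and 0 and 8 in young naive tissue. Other dendritic markers were lower in old tumor-bearing than in old naive tissue, Flt3 at 1.07 against 2.34 FPKM, Zbtb46 at 1.03 against 1.87 FPKM and Cd209a at 0.054 against 0.888 FPKM. The dendritic list, of which Itgax gave 8.39 FPKM in old tumor-bearing tissue, summed to 18.3 FPKM in old tumor-bearing and 10.3 FPKM in young tumor-bearing tissue, against 6.89 FPKM in old naive and 8.45 FPKM in young naive tissue. The 9 monocyte and border macrophage markers summed to 24.1 FPKM in old tumor-bearing and 5.60 FPKM in young tumor-bearing tissue, against 4.37 FPKM in old naive and 4.74 FPKM in young naive tissue. In old tissue 5 of the 6 filtered genes were at least 2-fold higher, Ly6c2 at 85.7-fold (29.1 to 417) and Ms4a7 at 20.1-fold (10.8 to 42.4). Among these 5 only Pf4, at 2.51 against 1.15 FPKM, passed in both libraries. The rest of them passed only through the tumor-bearing library. The border macrophage markers Cd163 and Lyve1, under the filter in both libraries, had 13 and 2 reads in old tumor-bearing tissue, against 80 and 19 in old naive tissue. Over all 9 genes the median log2 ratio was 1.06 in old tissue. Of the 7 B cell markers, 3 passed in old tissue, only through the tumor-bearing library, and all 3 were higher, and the list summed to 9.91 FPKM in old tumor-bearing and 0.998 FPKM in old naive tissue. In young tissue 0 B cell markers passed, and the list summed to 1.14 FPKM in young tumor-bearing and 1.45 FPKM in young naive tissue. Whether these cells, microglia, tumor cells or other brain cells held the class II RNA was not tested.

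The factors that hold Ciita at the promoter were within 2-fold. All 7 genes of the enhanceosome list, the RFX subunits Rfx5, Rfxank and Rfxap, the NF-Y subunits Nfya, Nfyb and Nfyc, and Creb1, passed the filter, and 0 of 7 were 2-fold apart in any of the 4 comparisons. The list summed to 45.1 FPKM in old tumor-bearing and 53.2 FPKM in young tumor-bearing tissue, against 49.3 FPKM in old naive and 53.2 FPKM in young naive tissue. Rfx5 was at 3.91 FPKM in old tumor-bearing and 5.59 FPKM in young tumor-bearing tissue, against 4.28 and 4.09 FPKM in old and young naive tissue.

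Interferon gamma signaling, which induces Ciita, was higher in some of its genes and within 2-fold in others. Of 9 listed genes 8 passed in both tumor comparisons, with 5 at least 2-fold higher in old and 4 in young tissue and 0 lower. Of the higher genes, Socs1 in old tissue and Socs1 and Irf8 in young tissue passed only through the tumor-bearing library. Irf1, a factor which acts at a Ciita promoter, was 30.004-fold (25.5 to 35.6) and 4.23-fold (3.35 to 5.38) higher in old and young tumor-bearing tissue, and Socs1, the feedback inhibitor, 40.8-fold (25.4 to 70.4) and 5.72-fold (3.61 to 9.45). Irf8, a factor of myeloid cells, was 5.99-fold (4.97 to 7.28) and 2.29-fold higher (1.83 to 2.89). The receptor subunit Ifngr1 was 2.39-fold higher in old tissue (2.08 to 2.76) and 0.959 times as high in young tissue (0.826 to 1.11), and the other subunit, Ifngr2, and the kinases Jak1 and Jak2 were within 2-fold in both. Ifng itself had 25 reads in old tumor-bearing and 1 in young tumor-bearing tissue, against 0 in both naive libraries.

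Antigen processing genes were higher mainly in old tumor-bearing tissue. Of 9 listed genes all passed, with 6 at least 2-fold higher in old tumor-bearing tissue (median log2 ratio 1.71) and 1 in young tumor-bearing tissue (median 0.03). Ctss, the protease that trims Cd74, was at 288 FPKM in old tumor-bearing and 81.4 FPKM in young tumor-bearing tissue, against 50.9 FPKM in old naive and 36.7 FPKM in young naive tissue, 5.67-fold (5.32 to 6.04) and 2.22-fold higher (2.06 to 2.39). Ifi30, a lysosomal thiol reductase that opens disulfide bonds of antigens, was 19.7-fold higher in old tissue (14.4 to 27.9) and 1.86-fold in young tissue (1.35 to 2.59). Ctsl, another lysosomal protease, was 8.44-fold higher in old tissue (7.95 to 8.96) and 1.06-fold in young tissue (0.987 to 1.13). March1, a ligase that removes class II from the cell surface, was 0.494 times as high in old tumor-bearing as in old naive tissue (0.424 to 0.577).

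On the T cell side of class II, Cd4 was at 2.12 FPKM in old tumor-bearing and 1.39 FPKM in young tumor-bearing tissue, against 3.87 FPKM in old naive and 1.41 FPKM in young naive tissue, 0.549 times in old (0.453 to 0.665) and 0.987 times in young tissue (0.754 to 1.29). Trac, the constant part of the T cell receptor α chain, was 24.6-fold (9.39 to 91.3) and 3.14-fold higher (1.69 to 6.21) in old and young tumor-bearing tissue. It had only 4 reads in old naive and 14 in young naive tissue. Lag3, an inhibitory receptor that binds class II, was 2.22-fold (1.91 to 2.58) and 2.09-fold higher (1.65 to 2.68). Of 9 listed genes 7 passed in old tissue with 6 at least 2-fold higher, 5 of the 7 having passed only through the tumor-bearing library. In young tissue 3 passed with 2 higher, and 1 of the 3, Trac, passed only through the tumor-bearing library. Among the 6 costimulation genes, 5 passed in old tissue, 3 of them only through the tumor-bearing library, and all 5 were higher. In young tissue 3 passed, 2 of them only through the tumor-bearing library, with 2 higher. Cd274, which encodes PD-L1, was 18.3-fold higher in old tissue (14.4 to 23.6) and 4.11-fold in young tissue (2.95 to 5.83), and Cd86, a ligand of CD28, 4.41-fold (3.07 to 6.53) and 2.58-fold (1.74 to 3.91).

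The 9 MHC class I genes gave the nearest comparison, and all 9 passed and were at least 2-fold higher at both ages, 2 in old and 4 in young tissue having passed only through the tumor-bearing library. Their median log2 ratio was 4.73 in old and 2.33 in young tissue, beside 4.26 in old and, for the 7 members that passed, 3.64 in young tissue for the class II genes. Over all 10 class II members the young median was 1.83, so which of the lists lay higher in young tissue turns with the filter. Nlrc5, the class I counterpart of Ciita, was 74.5-fold higher in old tissue (56.6 to 100.2) and 40.2-fold in young tissue (22.8 to 78.4). Ciita stood at 8.24-fold and 2.80-fold, with intervals that did not overlap those of Nlrc5. Both genes passed the filter only through the tumor-bearing library at both ages. Nlrc5 had 51 reads (0.384 FPKM) in old naive and 12 reads (0.069 FPKM) in young naive tissue, so its folds rest on low naive levels. Along the class II region of chromosome 17 (34092340 to 34316674), 13 protein-coding genes stand in a row, 8 of them members. The class I processing genes Psmb9, Tap1, Psmb8 and Tap2 lie between H2-DMb1 and H2-Ob and had log2 ratios of 5.55, 5.66, 6.05 and 4.30 in old tissue, whereas their neighbour H2-Ob had 1.62. Brd2, between H2-Oa and H2-DMa, had -0.04 in old and 0.23 in young tissue.

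**Figure D5:**
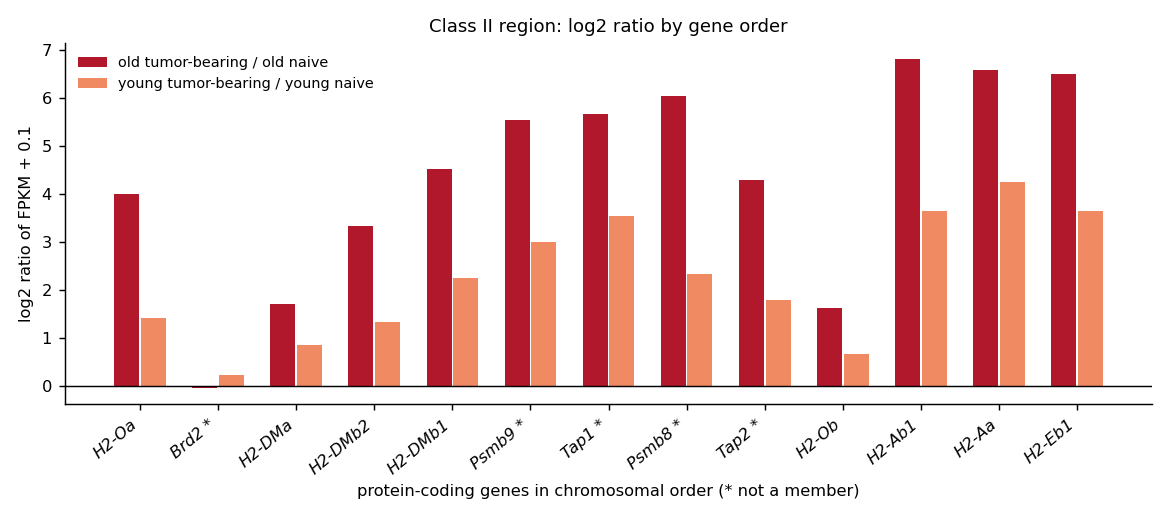
Log2 ratio of FPKM + 0.1 between tumor-bearing and naive tissue for the 13 protein-coding genes of the class II region in chromosomal order, evenly spaced, in old and young tissue, with stars on genes that are not members. H2-Ab1, H2-Aa and H2-Eb1 at one end have the highest bars in old tissue (6.81, 6.59 and 6.51), and Brd2 stands near 0.

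Over the 4 libraries, the genes with the pattern most like the median of the members were sought among 9792 named protein-coding genes at 5 FPKM or more in a library. Likeness was the Euclidean distance between centred log2 values of FPKM + 0.1, which had a median of 3.96 over these genes. The 10 nearest were Ccl8 (0.333), Ccl7 (0.368), Serpina3g (0.441), Fgl2 (0.546), Il2rg (0.594), Socs1 (0.622), H2-D1 (0.681), Ifi207 (0.683), Prrg4 (0.704) and Emp3 (0.728). Of the members H2-DMb1 was nearest to the median pattern, at 0.667, and H2-Ob farthest, at 2.32. Ccl8 and Ccl7 are chemokines for monocytes. Ccl8 was at 12.5 FPKM in old tumor-bearing and 2.35 FPKM in young tumor-bearing tissue, against 0.375 FPKM in old naive and 0.383 FPKM in young naive tissue.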

How the data were processed

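Poly-A RNA libraries were sequenced as read pairs, per the labels' protocols, which describe both a stranded and an unstranded preparation, so reads of overlapping antisense genes cannot be told apart. The submitters' processing notes name HISAT2 and mm10. The sources used here do not give the counting program, the annotation or any pooling of mice. The deposited values are FPKM, 1 column per library, per the file headers. The design foresaw this unit and no count test was run.

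GENCODE M21, an annotation of that assembly, gave symbols and positions and named 54495 of 54532 genes. FPKM times exon length came in whole steps, which gave each library's divisor (23253750 for old tumor-bearing, 19999587 for young tumor-bearing, 15646445 for old naive and 20445811 for young naive tissue) and reads. Reads were whole within 0.03 in all libraries for 97.1% of the 32867 genes above 0. Of 918 others with a length, 887 lie on chromosomes 17, 18 and 19, among them 9 of the 10 members. For these the smallest exon length giving whole reads in all 4 libraries (within 0.01) was used, searched from 90% of the length of the gene's first listed transcript (name suffix 201). It leaves folds alone. The true length may be a multiple, which would narrow the intervals. Levels between genes rest on the authors' lengths.

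Genes entered a comparison at 1 FPKM in at least 1 of 2 libraries. Log2 ratios used FPKM + 0.1, which understates differences of low genes. A count of 0 was taken to allow up to 3 reads. Intervals (95%, scipy 1.17.1, Python 3.11.15) hold counting error alone, because the labels describe no molecular identifiers and PCR reads are then not independent molecules. The steps were tested on simulated data. Named are all members, the nearest 10 patterns, list genes with the largest ratios (up to 4 a list) and Ptprc and Itgax. H2-Ea-ps, H2-Eb2, Brd2, Dexi, BC051537, H19, Tap2, Ifng, Ifngr1, Ifngr2, Jak1, Jak2, Xcr1, Clec9a, Cd209a, Cd163, Lyve1 and Coro1a were named after their values were seen. The members and all 16 lists were chosen with earlier results of these data known. Some genes of the lists are not reported by name here. Scaling, pseudocount and filter were varied.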

Additional observations from a re-analysis of the deposited data

How the results depend on the processing

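With 1 library per group no library could be left out. No paired analysis was possible because each group has a single library, so the groups share fewer than 2 replicate numbers. All 10 members kept a positive log2 ratio between tumor-bearing and naive tissue at both ages under the 4 other scalings and the 2 other pseudocounts. In old tissue the count at least 2-fold higher was 6 instead of 10 with a filter of 5 FPKM, since fewer members enter, and the median log2 ratio of 4.26 became 2.84 with a pseudocount of 1, 5.49 with 0.01, 6.44 with the filter of 5 FPKM and 5.19 without the close copies H2-DMb1 and H2-DMb2. In young tissue the median of 3.64 became 3.21 with a pseudocount of 1 and 1.83 without a filter. With a pseudocount of 1 the count at least 2-fold higher was 5 instead of 6 in young tissue, where Ciita fell to a log2 ratio of 0.63. In old tissue that pseudocount gave 9 instead of 10, with H2-Ob at a log2 ratio of 0.75. In old against young tumor-bearing tissue the median of 2.41 became 2.79 with median-of-ratios scaling, 2.78 scaled by fragments in genes, 1.97 with a pseudocount of 1, 2.65 with the filter of 5 FPKM and 2.04 without these copies. In old against young naive tissue 1 member, H2-Oa, was 2-fold lower without a filter. The excess of the old over the young log2 ratio, 2.30, lay between 1.80 and 2.81. Of the log2 ratios of single members under the other scalings and pseudocounts, 190 moved by less than counting error and 50 by more. A filter cannot move them. Scaling moved all genes as well. With old tumor-bearing set against old naive tissue, 3395 genes were 2-fold or more higher and 5171 lower as deposited, 4374 and 3922 with median-of-ratios scaling (a shift of the median by 0.37), 5011 and 3356 scaled by fragments (0.56), 4524 and 3756 with equal totals (0.42) and 4152 and 4165 without mitochondrial and the 50 highest genes (0.29). Old against young tumor-bearing tissue gave 3155 and 4941 as deposited and 4270 and 3467 with median-of-ratios scaling (0.39), 4218 and 3531 scaled by fragments (0.37). Equal totals gave 3537 and 4359 (0.15) and leaving out the highest genes 3452 and 4497 (0.11). Old against young naive tissue gave 1035 and 760 as deposited, 816 and 892 scaled by fragments (-0.14), 712 and 1019 with equal totals (-0.22) and 835 and 876 without the highest genes (-0.12). Reads at the annotated exon length, an alternative chosen after the data were seen, gave 10 instead of 9 members with an interval above 1 in young tissue. Depth limits H2-DMb2, H2-Oa and H2-Ob, which had at most 17 reads in a naive library.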
